A study of Mus musculus with 2 samples.

Results

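Cells keep free calcium low in the cytosol by pumping it out across the plasma membrane and into internal stores, mainly the endoplasmic reticulum. When phospholipase C makes inositol trisphosphate (IP3), IP3 receptors in the store membrane open and release calcium, and the store sensor STIM1 then opens channels at the cell surface that let calcium back in. Embryonic stem cells use this machinery for receptor-driven calcium signals and oscillations. The genes described here encode these parts: the calcium ATPases of the endoplasmic reticulum (SERCA; Atp2a1, Atp2a2, Atp2a3), of the plasma membrane (PMCA; Atp2b1, Atp2b4) and of the Golgi (Atp2c1), the IP3 receptors (Itpr1, Itpr2, Itpr3) and the store sensor Stim1.

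The 10 genes were chosen by name, with the differences between the arrays already known, and a gene was measured by the probesets that the platform annotation assigns to it alone. Such probesets existed for 8 of the 10 genes, out of 19938 genes in all, and each of the 8 had 1 probeset. Atp2b4 and Itpr1 were not analysed here. Because the choice drew on the same contrast, the values below are a description and no test is attached to them.

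The cells were i-OSKM-ESC, mouse embryonic stem cells of strain 129 made from the KH2 line. Their transgenes for Oct4, c-Myc, Klf4 and a Sox2 that carries an epitope tag are switched on by the antibiotic doxycycline. In the plus doxycycline group the drug was present at 4 µg/mL for 24 hours, and in the no doxycycline group the medium was renewed without it. Both groups carried the same inducible factors and were grown on gelatin. With 1 array in each group no replicate error or p-value exists, and an effect of the drug itself cannot be told apart from an effect of the factors, since no cells without the transgenes were analysed here. Values are log2 expression after robust multi-array averaging (RMA), and a difference is plus doxycycline minus no doxycycline.

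The labels were set against the induced factors and the cell type markers. Pou5f1, which encodes Oct4, had a log2 value of 12.46 with doxycycline and 12.05 without, Klf4 had 9.34 and 8.91, and Myc had 10.42 and 10.07, whereas Sox2 had 10.88 with doxycycline and 11.89 without, 2.01-fold lower. No source used here says whether these probesets read the transgenes or only the endogenous transcripts. The 4 values therefore do not check the label, and every direction below rests on it. All 12 embryonic stem cell markers lay above the median of the table on both arrays, with values from 9.08 to 12.49 with doxycycline and from 9.56 to 13.01 without, and their median difference was -0.44. Besides Sox2, those furthest apart were Utf1 (-0.95) and Tdgf1 (-0.73). The stem cell markers had 9 negative and 3 positive differences, the highest 0.41 (Pou5f1). The median difference was 0.26 over 12 fibroblast and feeder markers, 0.06 over 11 blood and endothelial markers and 0.11 over 12 muscle markers. The most different markers that passed the expression filter described below were Fbln2 (0.52), Col1a2 (0.50) and Col5a1 (0.45) for fibroblasts, and Des (-0.36), Ckm (-0.24) and Acta1 (0.22) for muscle. Neither list went 1 way. The fibroblast and feeder markers had 8 positive and 4 negative differences, the lowest -0.25, and the muscle markers had 10 positive and 2 negative.

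The promoters of the genes the results turn on are shown first, from 250 bases before to 50 after the annotated start, in RefSeq's GRCm38.p6. Atp2a3 is shown because it was the 1 gene of the group at least 2-fold apart, Atp2a1 as a SERCA paralog, and Itpr3 because its window holds the widest set of the motifs searched. Of the 10 genes, 8 had an entry (10 windows in all), and Atp2a2 and Itpr1 did not. Capitals mark a match to a searched motif on either strand. The motif of POU factors such as Oct4 was the octamer ATGCAAAT. For Sox factors the core CATTGT was searched. For Krüppel-like factors the letters were CCACCC. For Myc and its partner Max the E-box was CACGTG. For the calcium-dependent NFAT factors the core was GGAAAA. No matches overlapped each other in the windows of these genes. Each line reads 5′ to 3′ along the gene.
Atp2a3, chr11:72960919-72961218, plus strand: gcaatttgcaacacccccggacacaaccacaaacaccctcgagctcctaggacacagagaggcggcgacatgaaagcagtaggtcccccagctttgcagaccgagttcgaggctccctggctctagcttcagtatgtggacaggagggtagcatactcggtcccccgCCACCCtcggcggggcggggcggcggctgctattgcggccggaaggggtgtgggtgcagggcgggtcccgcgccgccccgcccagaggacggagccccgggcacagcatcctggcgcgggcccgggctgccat
Atp2a1, chr7:126463024-126463323, minus strand: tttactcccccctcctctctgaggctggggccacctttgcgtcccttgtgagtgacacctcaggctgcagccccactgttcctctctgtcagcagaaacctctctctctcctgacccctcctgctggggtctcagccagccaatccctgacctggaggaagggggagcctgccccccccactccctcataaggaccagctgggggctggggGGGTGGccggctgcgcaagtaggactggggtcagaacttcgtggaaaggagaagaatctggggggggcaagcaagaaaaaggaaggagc
Itpr3, chr17:27057054-27057353, plus strand: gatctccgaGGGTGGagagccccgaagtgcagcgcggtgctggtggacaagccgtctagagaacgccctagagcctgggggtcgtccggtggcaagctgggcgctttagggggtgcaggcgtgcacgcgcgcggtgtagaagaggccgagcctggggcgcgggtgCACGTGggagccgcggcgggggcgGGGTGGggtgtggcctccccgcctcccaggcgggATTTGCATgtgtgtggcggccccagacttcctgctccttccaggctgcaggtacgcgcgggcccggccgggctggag

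In the Atp2a3 window the search found 1 Krüppel-like motif, whose first base lies 83 bases before the start, and no match to the other 4 motifs. The Atp2a1 window also held 1 Krüppel-like motif and nothing else. The Itpr3 window held 1 octamer, 2 Krüppel-like motifs and 1 E-box. Among 32851 promoter windows of the same length, 1.74% held the octamer, 12.6% the Sox core, 31.5% the Krüppel-like motif, 7.15% the E-box and 23.4% the NFAT core, so this motif is a common find. Itpr2 had 1 Krüppel-like motif, 1 of the Atp2b1 windows had 2 Krüppel-like motifs and an E-box, Atp2b4 had 1 NFAT core, and the windows of Stim1 and Atp2c1 had no match. The Atp2a3 window was 68.3% G or C with 25 CpG dinucleotides and that of Atp2a1 62.3% with 4, against medians of 52.7% and 7 over all windows. This is not particular to Atp2a3. Both values were higher for Stim1 (78.7%, 38), Itpr3 (72.3%, 30), Itpr2 (73.3%, 26) and both Atp2b1 windows (79.3%, 54 and 45). The Atp2c1 windows had 73.3% with 36 and 51.7% with 8, and Atp2b4 had 47.7% with 4. A match is a string of letters and not a measured binding site.

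The SERCA pumps move calcium from the cytosol into the endoplasmic reticulum, and their genes differ in where they are known to be expressed: Atp2a2 in nearly all cells, Atp2a1 in fast skeletal muscle, and Atp2a3 in blood, endothelial and some epithelial cells. Atp2a3 had a log2 value of 9.65 with doxycycline, against 7.19 without. That is a difference of 2.46, or 5.49-fold on the linear scale, the third largest rise among the 11191 genes that passed the expression filter. The filter asks that the higher of the 2 values reach the median of the table, 6.48, and Atp2a3 lay above it on both arrays. Atp2a2 had 11.20 with doxycycline and 11.32 without, a difference of -0.12 (1.09-fold lower). Atp2a1 had 6.23 with doxycycline and 5.94 without, a difference of 0.28, with both values below the filter. The filter is the middle of the table and not a measured background, and the table gives no detection call. Within the SERCA family the difference was therefore at least 2-fold for Atp2a3 alone.

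**Figure D1:**
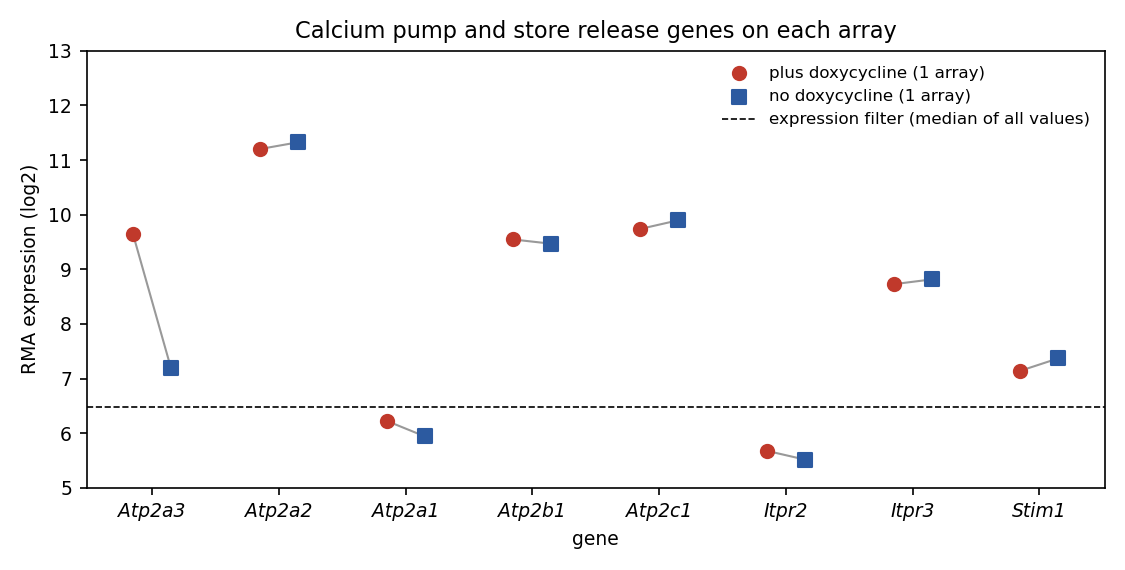
Log2 RMA expression (vertical axis) of the 8 measured genes, with the plus doxycycline array as a circle and the no doxycycline array as a square, 1 array each. The 2 values of Atp2a3 are 9.65 and 7.19, while in each other gene the 2 symbols are at most 0.28 apart, and Atp2a1 and Itpr2 lie below the dashed expression filter at 6.48. Levels of different genes come from different probes and are not comparable.

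The pumps of the other membranes lay close together on both arrays. Atp2b1, the widely expressed calcium pump of the plasma membrane, had 9.55 with doxycycline and 9.47 without, a difference of 0.08. Atp2c1, which loads calcium and manganese into the Golgi, had 9.74 with doxycycline and 9.90 without, a difference of -0.16.

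Neither measured IP3 receptor gene, nor the store sensor gene, was 2-fold apart. Itpr3 had 8.73 with doxycycline and 8.81 without, a difference of -0.09. Itpr2 had 5.68 with doxycycline and 5.52 without, a difference of 0.16, and both values lay below the filter. Stim1, a calcium sensor of the endoplasmic reticulum membrane and neither a pump nor a channel, had 7.14 with doxycycline and 7.37 without, a difference of -0.23 (1.17-fold lower).

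Of the 8 measured genes, 6 passed the filter, and 1 of these, Atp2a3, was at least 2-fold higher and 0 were at least 2-fold lower. Over all 11191 genes that passed, 0.92% were at least 2-fold higher, 0.768% at least 2-fold lower and 1.69% either. At a threshold of 1.5-fold Atp2a3 was again the 1 gene called, beside 7.04% of all genes that passed. Since the genes were assembled with the value of Atp2a3 known, nothing is read from the count. Signs over the 8 were split, with 4 positive and 4 negative differences. Among the 6 that passed the filter, 2 were positive and 4 negative. The median of those 6 was -0.11, beside -0.03 over all genes that passed. The median over the 8 was -0.0049, and -0.09 over the 7 without Atp2a3, beside a median of 0.0083 over all genes.

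With 1 array per group, the differences can be held only against how genes of like brightness spread and how probesets of 1 gene vary, and neither measures variation between cultures. All genes were sorted by mean expression into 20 bins of about 997 genes, and a robust SD, scaled from the median absolute deviation, was computed per bin. In the bin of Atp2a3 the robust SD was 0.227 and the median difference -0.07. Atp2a3 had the highest difference of the 997 genes of its bin (percentile 100), 11.1 robust SDs above the bin median. The other 7 genes lay at most 0.777 robust SDs from the median of their own bins, with percentiles from 22.0 (Atp2a2) to 77.9 (Atp2a1). In the 492 genes for which 2 probesets passed the filter, differences of probesets within a gene had an SD of 0.167. The differences of Atp2a2, Atp2b1, Atp2c1, Itpr2 and Itpr3 were smaller than that, and those of Atp2a1 and Stim1 were larger.

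**Figure D2:**
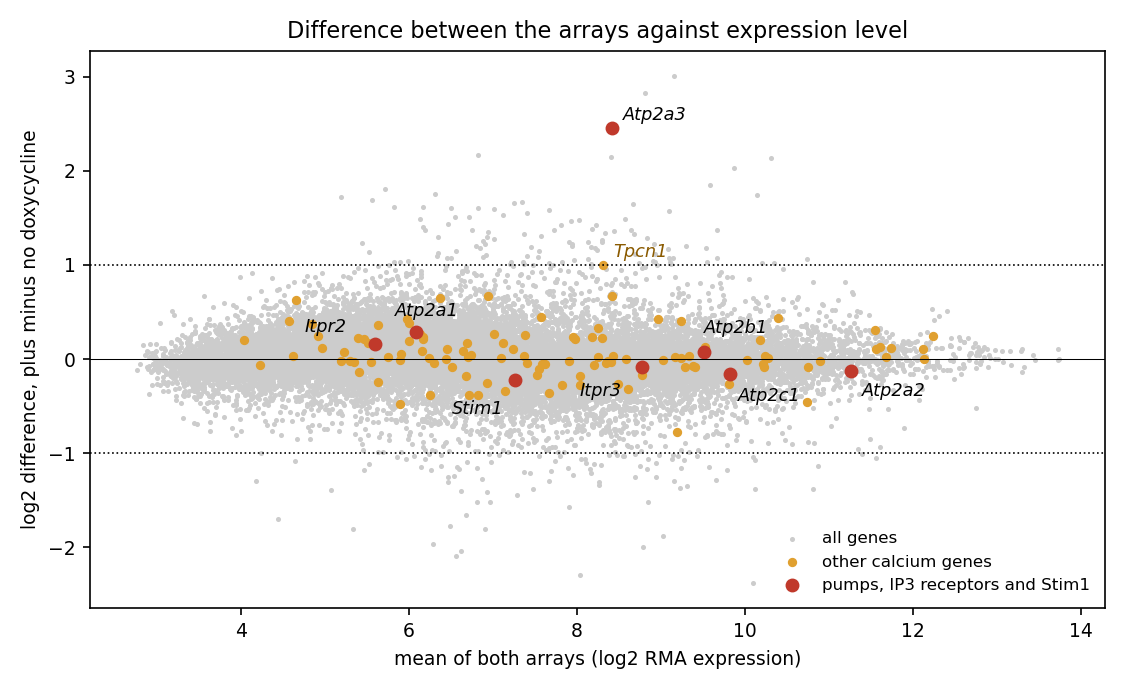
Log2 difference, plus minus no doxycycline (vertical axis), against the mean log2 RMA expression of both arrays (horizontal axis) for all 19938 genes (grey), 111 other calcium genes (orange) and the 8 measured pump, receptor and sensor genes (red). Dotted lines mark 2-fold, at or beyond which Atp2a3 lies at 2.46 and Tpcn1 at 1.0, while the other red points lie between -0.23 and 0.28.

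Genes that act with these pumps and channels were described by 9 lists with 122 symbols (old and new symbols both listed for Stimate and Mrvi1), of which 111 were measured and 77 passed the filter. Of the 77, 1 was at least 2-fold higher and 0 were lower, 1.30% against 1.69% over all genes. The median difference over the 111 was 0.02, with 65 positive and 46 negative values. Positive values made up 58.6%, against 51.6% over all 19938 genes. Among genes passing the filter, 42 of the 77 were positive, 54.5% against 44.4% of all genes that passed. This excess of positive values was not tested. In 105 of the 111 the difference was under 0.5 in size, a share of 94.6% against 92.1% over all genes, which lies near the background. Counts of 0 called in single lists below are also near the 1.69%, and nothing is read from them.

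The 1 gene called was in the list of other release and leak channels, where 7 of 8 measured genes passed the filter and the median was -0.0017. It was Tpcn1, which encodes a cation channel of endosomes and lysosomes, with 8.81 with doxycycline and 7.81 without, a difference of 1.0. Tpcn1 lay at the 2-fold threshold and did not reach it, at 0.91, when 32 was added to the linear values. Its paralog Tpcn2, a lysosomal channel, had 7.29 with doxycycline and 7.18 without. Ryr1, the ryanodine receptor known from skeletal muscle, had 7.14 with doxycycline and 6.88 without.

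Among other pumps and exchangers, 2 of 12 genes passed the filter and 0 were 2-fold apart, beside 1.69% of all genes that passed. Slc8b1, the mitochondrial sodium-calcium exchanger, had 8.75 with doxycycline and 8.09 without, a difference of 0.67. Atp2b2, a plasma membrane calcium pump known from neurons and hair cells, had 6.69 with doxycycline and 6.60 without. The remaining 10 genes, which include the plasma membrane exchangers Slc8a1, Slc8a2 and Slc8a3, lay below the filter on both arrays.

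Among store-operated entry genes, which are the partners of Stim1, 7 of 12 passed the filter and 0 were called, beside 1.69% of all genes that passed. The median was 0.17 over all 12 and 0.03 over the 7. Orai1, which forms the pore of the store-operated channel, had 7.51 with doxycycline and 7.25 without, a difference of 0.25. Its paralog Orai3 had 7.49 with doxycycline and 7.85 without, a difference of -0.36. Stim2, the second store sensor, had 7.90 with doxycycline and 8.17 without, a difference of -0.27, close to that of Stim1. The differences of both sensors were thus negative, as were those of 6215 of the 11191 genes that passed, so nothing is read from the shared sign. Those of Orai1 and Orai3 differed in sign.

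Of the small membrane proteins that bind SERCA pumps, 3 were measured, phospholamban (Pln), sarcolipin (Sln) and myoregulin (Mrln), which inhibit SERCA in muscle. All 3 lay below the filter on both arrays, with differences of 0.63 (Pln), -0.02 (Sln) and 0.42 (Mrln). Strit1 and Erln were not analysed here. Of 7 measured SERCA regulators 2 passed, Hax1, a phospholamban-binding protein gene, with a difference of 0.03, and Tmx1, a redox enzyme of the endoplasmic reticulum, with 0.01.

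Upstream and downstream of the IP3 receptors, 0 of 12 phospholipase C and IP3-metabolism genes passing the filter and 0 of 7 IP3 receptor regulators were called. The share over all genes that passed was 1.69%. Plcb4, a phospholipase C activated by G proteins, had 8.80 with doxycycline and 9.58 without, a difference of -0.77. Plcg2, a phospholipase C activated through tyrosine kinases, had 9.18 with doxycycline and 8.75 without, a difference of 0.43. Plce1, a Ras-activated phospholipase C, had a difference of -0.38. Among the receptor regulators, Bcl2, an anti-apoptotic protein that also binds IP3 receptors, had 7.28 with doxycycline and 6.60 without, a difference of 0.67. Its relatives Mcl1 and Bok had differences of -0.45 and 0.23.

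The calcium buffers and chaperones inside the endoplasmic reticulum, the store that Atp2a3 fills, had a median of 0.12, with 13 positive and 4 negative differences (76.5% positive, against 51.6% over all genes). Of the 15 that passed the filter, 11 were positive and 0 were called, beside 44.4% positive and 1.69% called among all genes that passed. The list was not tested. Calu, a calcium-binding protein of the secretory pathway, had 10.61 with doxycycline and 10.18 without. Rcn1, of the same family, had 9.44 with doxycycline and 9.03 without. Casq1, the calsequestrin of skeletal muscle, had 6.52 with doxycycline and 6.90 without. The main buffer Calr had a difference of 0.12 and the chaperone gene Hspa5 of 0.02, both picked after their values were seen.

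In the mitochondria, 0 of 10 uptake genes were called, beside 1.69% of all genes that passed, and the median was -0.03. Mcur1, a regulator of the calcium uniporter, had 7.79 with doxycycline and 7.35 without, a difference of 0.45, and Hspa9 and Vdac2 had 0.11 each. Of the calmodulin, calcineurin and NFAT genes, which read cytosolic calcium, 0 of 15 passing the filter were called, beside the same 1.69%. Their median was -0.02. Camk2d, a calcium and calmodulin-dependent kinase, had 6.69 with doxycycline and 6.04 without, a difference of 0.65. Ppp3cb, a catalytic subunit of calcineurin, and the transcription factor gene Nfatc4 had -0.26 each.

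**Figure D3:**
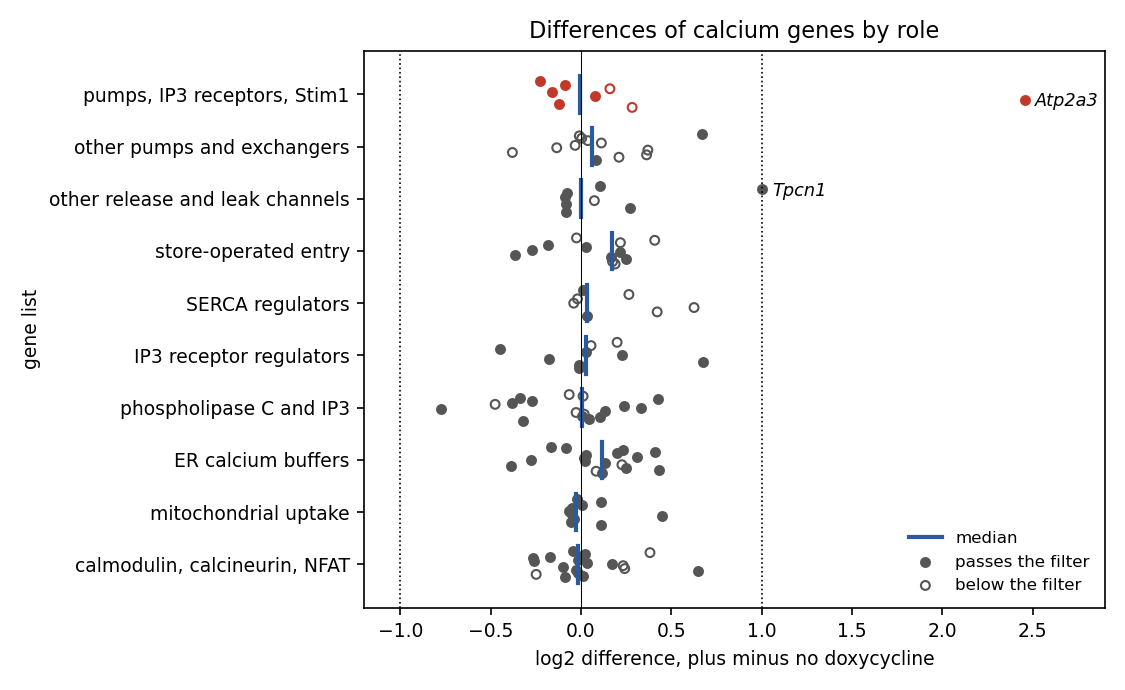
Log2 difference, plus minus no doxycycline (horizontal axis), of each measured gene in 10 gene lists (rows), with filled points for genes passing the expression filter, open points for genes below it and a bar at each list's median. The medians, over genes below the filter too, lie between -0.03 and 0.17, and 2 genes reach the dotted line at 2-fold higher, Atp2a3 at 2.46 and Tpcn1 at 1.0.

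Atp2a3 is known from blood and endothelial cells, and markers of these cells were read beside it. Of 11 measured markers, 3 passed the filter, Cd3e (0.23), Itga2b (0.12) and Runx1 (-0.10). Of these 0 were called, beside 1.69% of all genes that passed. Summed on the linear scale the 11 gave 726 with doxycycline and 676 without, a ratio of 1.07, and their differences ran from -0.11 (Spi1) to 0.50 (Tie1). The pan-leukocyte gene Ptprc had 5.15 with doxycycline and 5.10 without, the endothelial cadherin gene Cdh5 had 5.92 on both arrays, and both lay below the filter. RMA gives no value of 0. The summed fibroblast and feeder markers had 1219 with doxycycline and 1009 without, a ratio of 1.21, and the part of such cells in the result was not tested. Fewer cells of a type and less RNA per cell cannot be told apart in such bulk RNA.

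The measured genes next to Atp2a3 on chromosome 11, 5 on each side in the gene order of GRCm38.p6, were read after its value had been seen. Of these 10 neighbours 7 passed the expression filter and 0 were called, beside 1.69% of all genes that passed. A count of 0 among 7 genes is near that share, and nothing is read from it. Their differences ran from -0.44 (P2rx5) to 0.22 (Ncbp3), with a median of -0.0027. The nearest on either side were Zzef1, with 7.30 with doxycycline and 7.72 without, and P2rx1, an ATP-gated cation channel gene, with 5.52 with doxycycline and 5.37 without, below the filter. P2rx5, of the same channel family, had 6.08 with doxycycline and 6.52 without.

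**Figure D4:**
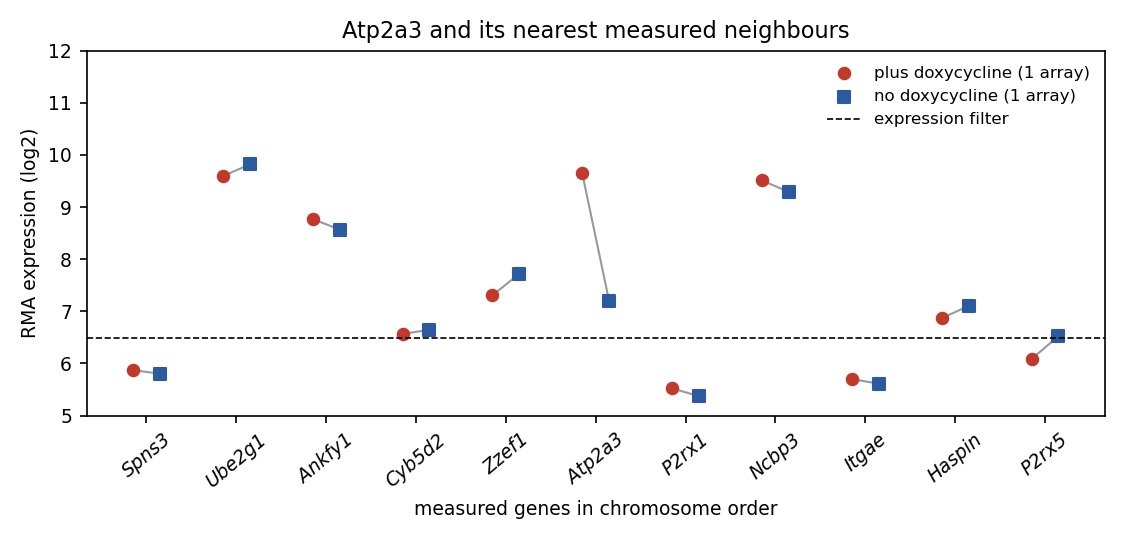
Log2 RMA expression (vertical axis) of Atp2a3 and the 5 nearest measured genes on each side in chromosome order (horizontal axis), with the plus doxycycline array as a circle and the no doxycycline array as a square, 1 array each. The 2 values of Atp2a3 are 2.46 apart and those of the 10 neighbours at most 0.44 apart.

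The genes whose difference was nearest to that of Atp2a3, among those passing the filter, were Fcgr2b, an inhibitory Fc receptor, Fgf18, a growth factor, and Emp1, an epithelial membrane protein. Their differences were 2.17, 2.15 and 2.14, so the nearest was 0.29 away. Fcgr2b passed the filter through the plus doxycycline array alone, with 7.91 there and 5.74 without doxycycline. With 2 arrays this likeness is in size only.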

How the data were processed

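RNA of 2 cultures was hybridised to 1 array each. The deposited values of 35556 probesets are on a log2 scale and were made by the authors with RMA in Affymetrix Expression Console, per the submitters' processing notes, whose versions and genome build were not given in the sources used here. RMA makes the arrays' distributions alike, which hides any shift of the whole transcriptome, and dim genes show compressed fold changes. The number of arrays limits the precision.

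Probesets that the platform annotation assigns to exactly 1 gene were averaged per gene (21789 probesets, 19938 genes). A gene was called when its higher value reached 6.48 and it differed at least 2-fold. The genes and lists were chosen with earlier results of these data known. Named genes are the 10 members, the called genes of each list (where fewer than 3, the most different genes passing the filter, up to 3), the 4 induced factors and the 3 genes nearest to Atp2a3 in difference. Other genes named (Calr, Hspa5, Pln, Sln, Mrln, Slc8a1, Slc8a2, Slc8a3, Ptprc, Cdh5, Spi1, Tie1 and the neighbours of Atp2a3) were picked after their values were seen. Alternatives were 2 other filters, a loess trend removed (span 0.3), quantile normalization, an offset of 32, the brightest probeset, a 1.5-fold threshold and the median without Atp2a3. The calling step was tested on simulated data with the same noise level for all genes. That checks the code and says nothing of variation between cultures. The tools were matplotlib 3.10.9, statsmodels 0.14.6, pandas 2.3.3, NumPy 2.4.6 and Python 3.11.15. Sequences are from RefSeq.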

Additional observations from a re-analysis of the deposited data

How the results depend on the processing

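Across the alternatives run, 57 of 62 values stayed within the tolerance set for them: for a difference or median the probeset SD of 0.167, and for a count a factor of 1.5. That share says little of the small differences, and some of the 62 values could not have moved, as said below. The tolerance was larger than the differences of Atp2a2, Atp2b1, Atp2c1, Itpr2 and Itpr3, and Itpr2 stayed within it at 0.06 with the loess trend removed. The difference of Atp2a3 was 2.23 when an offset of 32 was added to the linear values, and at most 2.53, with the loess trend removed. Atp2a3 was the 1 member called under all 7 settings of filter, threshold and scaling. The looser filters, the lower threshold and the brightest probeset could not have removed its call. Only the loess, quantile and offset settings changed its difference, to 2.53, 2.49 and 2.23. These shifts are small beside its distance from the 2-fold threshold, so the unchanged call says little. With the offset, 115 genes were called in all, against 189 without it, and 0 other calcium genes, against 1 (Tpcn1). At 1.5-fold, 788 genes were called in all, 7.04% of those tested. Of the 77 other calcium genes that passed the filter, 5 were called, Tpcn1, Plcb4, Bcl2, Slc8b1 and Camk2d. That share is near the 7.04%, and nothing is read from it. Camk2d passed the filter through the plus doxycycline array alone. The median of the 8 genes lay near 0 and changed sign, at 0.02 with the loess trend removed and 0.03 after quantile normalization. The brightest probeset could change no member, since each has 1. No paired analysis was possible because each group has 1 array, and for the same reason no replicate could be left out. With no detection call in the table, signal over background is unknown for dim genes, Atp2a1 and Itpr2 among them.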
